A study of Mus musculus with 7 samples.

Results

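Collagen chain genes were defined as the rows of the count table whose gene symbol was Col, a number, the letter a and a number, which gave 44 of 55228 rows. Collagens are triple-helical proteins of the extracellular matrix, each built from 3 chains that may be copies of 1 gene product or come from different genes. Fibrillar chains form the banded fibrils of connective tissue, type IV chains form the sheet of the basement membrane, FACIT chains decorate fibrils, and type VI chains form beaded microfibrils. In the ovary, fibrillar collagens are known mainly from stroma and theca, while type IV collagen is a component of the follicular basal lamina, which underlies the granulosa cells. In cattle, granulosa cells also lay down deposits of basement membrane material between the cells.

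The libraries came from primary granulosa cells of the ovaries of C57BL/6J mice that had received no treatment; 4 were of wild-type (WT) genotype and 3 were labelled Fhl2 KO, here KO. FHL2, a protein built of LIM domains, binds both nuclear regulators and parts of the cytoskeleton, and the comparison asks which genes differ when its gene is targeted. The labels give neither the Fhl2 allele nor the age of the mice, and no label ties a library to an animal or a culture. The design text of the series speaks of 5 samples where 7 libraries are listed, and how these relate is not stated. Hence p-values rest on the spread among these libraries, part of which may be technical.

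The libraries held 38855596 to 50514556 counts. Fhl2 itself was 108 ± 5.63 CPM over the 4 WT libraries and 58.3 ± 9.57 CPM over the 3 KO libraries (SD), lower in each KO library than in any WT library, and reads of the gene remained in all 3. In KO libraries 1 to 3 Fhl2 measured 47.9, 66.8 and 60.4 CPM, lowest in KO library 1. Levels are CPM, the count scaled to the library total and by TMM, genes were tested with edgeR's quasi-likelihood test on all 15798 genes that passed the low-count filter, and a gene was called lower or higher at a Benjamini-Hochberg adjusted p under 0.05. Transcript length mattered to a different degree in each library: the slope of log2 CPM on log2 length, taken against the average library, was 0.0503 to 0.0728 in the WT libraries, -0.00359 in KO library 1, -0.134 in KO library 2 and -0.112 in KO library 3. KO library 1 thus stood between the WT libraries and the other KO libraries. Values adjusted for each library's trend with transcript length and GC content are given as corrected values. In these bulk samples, fewer cells of a type and less RNA per cell cannot be told apart.

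In the KO libraries collagen chain genes were lower across all of the large classes, and none was higher. Of the 44 genes, 37 passed the low-count filter and were tested; 23 fell, 0 rose and 14 did not pass the test. Over all genes tested, 15.6% fell and 13.5% rose. At least 2-fold lower were 10 of the 37, against 1.12% of all genes tested. The median log2 fold change of the tested collagen chain genes was -0.65, beside a median of -1.84e-04 over all genes tested. In 23 of the 37 the KO libraries lay all below the WT libraries, against 17.7% of all genes, and in 0 they lay all above, against 16.4%. The 23 genes in these counts were not the same set: Col18a1 was called with overlapping groups, and Col7a1 was not called although its groups did not overlap.

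Summed over all 44 genes, collagen transcripts took 0.976, 0.930, 0.916 and 0.909% of the counts in WT libraries 1 to 4 and 0.673, 0.428 and 0.552% in KO libraries 1 to 3. The summed level was 9442 ± 265 CPM over the 4 WT libraries and 5439 ± 1267 CPM over the 3 KO libraries (SD), so that KO stood at 57.6% of WT. Every KO library was below every WT library, and the KO libraries were spread more widely than the WT libraries. Of the 23 genes that fell, KO library 1 was the highest KO library in 18 and KO library 2 the lowest in 22. Without KO library 1 the count of collagen genes that fell was 26, where 3409 of all genes fell and 3331 rose. Without KO library 3 it was 16 (995 and 662 over all genes), and with KO library 1 as the lone KO library it was 14 (504 and 277), in each case with 0 collagen genes higher.

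**Figure D1:**
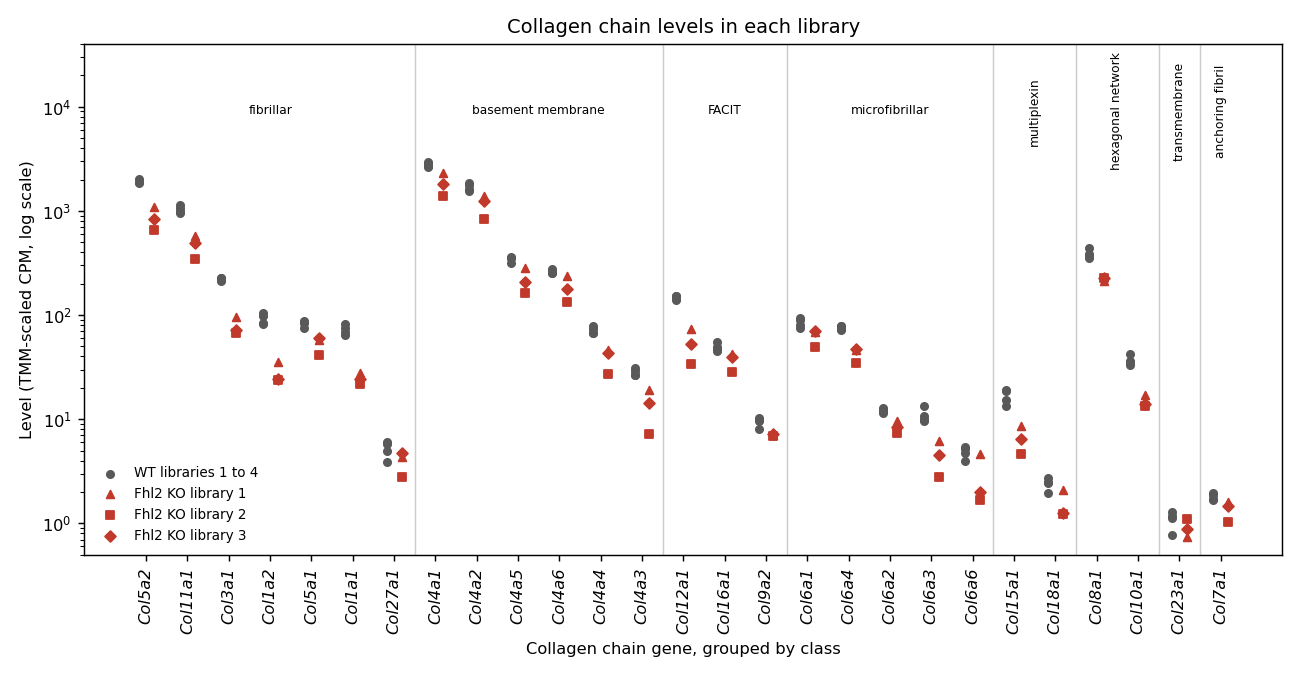
Level of each tested collagen chain gene with a mean of at least 1 CPM in each library, on a log scale, with genes grouped by class. Grey circles are the 4 WT libraries, and red triangles, squares and diamonds are KO libraries 1, 2 and 3; in the classes with called genes the red symbols lie below the grey ones for most genes, with KO library 2 usually the lowest.

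Compared per kilobase of transcript, the most abundant chain in WT was Col4a1 at 419 CPM per kb, followed by Col5a2 at 289, Col4a2 at 263 and Col11a1 at 135. Col5a2 and Col4a2 overlapped between WT libraries (277 to 304 and 241 to 285 CPM per kb), whereas Col4a1 (396 to 444) and Col11a1 (126 to 148) did not overlap their neighbours. Col8a1 came next at 76.1 and Col4a5 at 53.0 CPM per kb. The chains of type I collagen, the most abundant collagen of skin and bone, stood at 12.3 (Col1a1) and 17.2 (Col1a2) CPM per kb. They ranked 11 and 10 among the chains, below the type IV chains Col4a1, Col4a2, Col4a5 and Col4a6.

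By class, basement membrane chains held 56.1, 56.1, 52.2 and 54.6% of the collagen CPM in WT libraries 1 to 4 and 64.1, 61.9 and 63.7% in KO libraries 1 to 3. Fibrillar chains held 35.3, 35.2, 38.3 and 36.5% in WT and 28.2, 28.0 and 27.5% in KO. Neither share overlapped between the groups. The summed level of the fibrillar class in KO was 44.3% of its WT mean, that of FACIT chains 47.7%, of microfibrillar chains 64.7% and of basement membrane chains 66.7%. Single chains weighed on these sums. Of the FACIT sum in WT, 208 CPM, Col12a1 held 148 CPM, and it stood at 36.2% of WT in KO. Col16a1 and Col9a2 stood at 75.3 and 75.0%. Of the fibrillar sum in WT, 3427 CPM, Col5a2 held 1915 and Col11a1 1036 CPM. By median log2 fold change the order differed, with fibrillar chains at -0.98, microfibrillar at -0.81, basement membrane at -0.63 and FACIT at -0.41. These medians include chains with means below 1 CPM, whose fold changes are imprecise. In FACIT they were Col9a3, Col14a1, Col20a1 and Col22a1, among fibrillar chains Col5a3, Col11a2 and Col24a1, and among microfibrillar chains Col6a5. The basement membrane chains were all above 1 CPM. Shares of a total are not independent of each other, and the difference between classes was not tested.

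**Figure D2:**
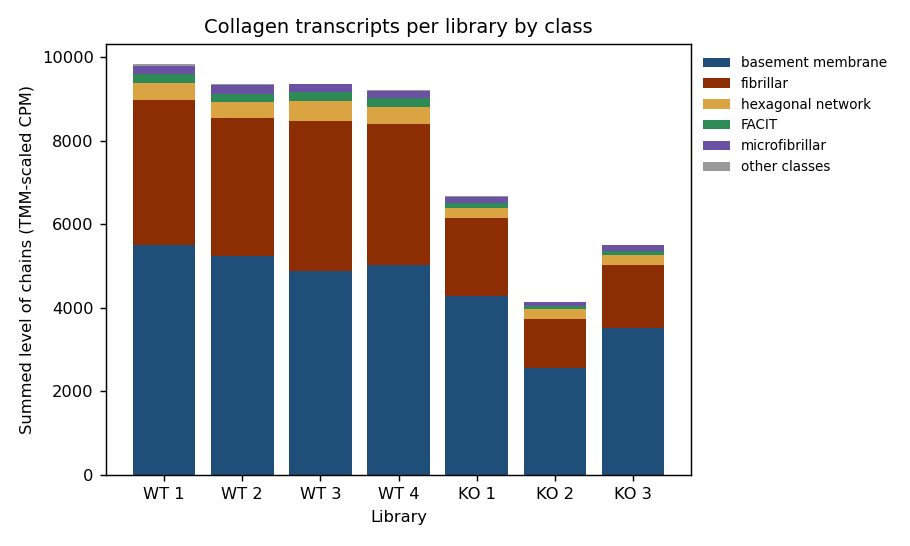
Summed level of collagen chains in each library in TMM-scaled CPM, stacked by class. The bars of the 3 KO libraries reach 4136 to 6666 CPM, below the 9220 to 9827 CPM of the 4 WT libraries, and the fibrillar portion is a smaller part of each KO bar.

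Among fibrillar chains, 6 of the 10 tested fell, 0 rose and 4 did not pass, with a median log2 fold change of -0.98 (corrected -0.69). The chains of types I and III fell most. Col1a1, the major chain of type I collagen, measured 82.1, 75.9, 64.2 and 68.8 CPM in WT libraries 1 to 4 and 27.5, 21.7 and 24.2 CPM in KO libraries 1 to 3. Col1a2, its partner chain, measured 105, 97.8, 81.2 and 83.3 CPM in WT libraries 1 to 4 and 35.5, 24.0 and 24.1 CPM in KO libraries 1 to 3. Both chains were lower in all 3 KO libraries than in any WT library, with KO library 1 the highest of the KO libraries. Col1a1 fell with a log2 fold change of -1.57 (SE 0.112, corrected -1.42, edgeR adjusted p = 9.43e-08) and Col1a2 fell with a log2 fold change of -1.72 (SE 0.146, corrected -1.60, edgeR adjusted p = 5.04e-06). The genes lie at chr11:94936224-94953042 and chr6:4504814-4541544 (mm10). Col3a1, whose product forms homotrimers that mix with type I in extensible tissue, measured 227, 228, 210.2 and 218 CPM in WT libraries 1 to 4 and 95.1, 67.2 and 72.3 CPM in KO libraries 1 to 3. It fell with a log2 fold change of -1.50 (SE 0.112, corrected -1.32, edgeR adjusted p = 1.81e-07).

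Types V and XI collagen nucleate fibrils and limit their diameter. Col5a2, a type V chain and the most abundant fibrillar transcript here, measured 1898, 1835, 2014 and 1914 CPM in WT libraries 1 to 4 and 1089.6, 658 and 839.8 CPM in KO libraries 1 to 3. The KO values were spread over a wider range than the WT values, with KO library 1 nearest to WT. Col5a2 fell with a log2 fold change of -1.15 (SE 0.135, corrected -0.88, edgeR adjusted p = 6.32e-05). Col11a1, a type XI chain known from cartilage, measured 1058, 962, 1137 and 989 CPM in WT libraries 1 to 4 and 570.3, 341 and 489 CPM in KO libraries 1 to 3. It fell with a log2 fold change of -1.15 (SE 0.144, corrected -0.82, edgeR adjusted p = 1.57e-04). Col5a1, the main type V chain, measured 87.0, 86.1, 75.7 and 83.1 CPM in WT libraries 1 to 4 and 58.0, 41.4 and 59.7 CPM in KO libraries 1 to 3. Its change was smaller: it fell with a log2 fold change of -0.65 (SE 0.116, corrected -0.40, edgeR adjusted p = 0.00117). None of these groups overlapped. Col27a1, a type XXVII chain, stood at 5.19 ± 0.970 CPM over the 4 WT libraries and 3.94 ± 1.01 CPM over the 3 KO libraries (SD), overlapping between the groups, and was not called (log2 fold change -0.39, SE 0.196, edgeR adjusted p = 0.140). The remaining tested fibrillar chains, Col5a3, Col11a2 and Col24a1, had means below 1 CPM and were not called; Col24a1 (log2 fold change -0.82, edgeR adjusted p = 0.109) passed without KO library 1 (-1.24, 0.0200) and with voom quality weights (-1.06, 0.0326), and its alternatives ran from 0.0200 to 0.874.

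Col3a1 (chr1:45311538-45349706) and Col5a2 (chr1:45374321-45503282, mm10) lie tail to tail on chromosome 1, 24.6 kb apart, and 2.11 and 2.18 Mb from Fhl2, the targeted gene. Of 41 other tested genes within 5 Mb of Fhl2, with collagen genes left out, 2 fell and 1 rose, with a median log2 fold change of -0.14. Over all genes tested, 15.6% fell and 13.5% rose. Whether the position near Fhl2 has a part in the Col3a1 and Col5a2 differences was not tested. The other fibrillar chains that fell were on other chromosomes.

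The 250 bases before the annotated start of Col3a1 and of Col11a1 are shown, as examples of a start without and a start with GC-rich motifs among the fibrillar genes that fell (RefSeq, GRCm38.p6, plus strand, chr1:45311288-45311537 and chr3:114030290-114030539). Capitals mark 3 motifs in either orientation: the CCAAT box, known to be bound by NF-Y, the GC box, with the letters GGGCGG and known to be bound by Sp1 family factors, and the TATA box, with the letters TATAAA.
Col3a1: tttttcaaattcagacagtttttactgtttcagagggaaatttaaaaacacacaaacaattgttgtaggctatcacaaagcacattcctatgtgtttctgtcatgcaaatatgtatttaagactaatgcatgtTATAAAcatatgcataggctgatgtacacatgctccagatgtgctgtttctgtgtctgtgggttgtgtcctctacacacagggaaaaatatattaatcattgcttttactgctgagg
Col11a1: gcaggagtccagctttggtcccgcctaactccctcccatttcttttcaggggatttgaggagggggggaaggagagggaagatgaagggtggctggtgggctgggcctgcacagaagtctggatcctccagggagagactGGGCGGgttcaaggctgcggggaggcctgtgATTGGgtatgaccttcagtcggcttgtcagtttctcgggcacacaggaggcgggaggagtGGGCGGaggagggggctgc
The Col3a1 stretch held 1 TATA box and no match to the other motifs, and that of Col11a1 held 2 GC boxes and 1 CCAAT box, the latter on the other strand. A RefSeq start was found for 35 of the 44 genes, and the 250 bases before it, at the first start listed for a gene, were searched for the motifs. The CCAAT box was in 12 of the 35 (8 of the 19 whose gene fell) and in 33.8% of the 250-base stretches before all 32851 RefSeq starts. The GC box was in 21 of the 35 (12 of the 19) and in 32.7% of all stretches. The TATA box was in 5 of the 35 (2 of the 19) and in 12.4% of all stretches. By their letters a CCAAT box and a GC box can share bases on opposite strands, both strands were searched, and a match is a description of the letters alone. No such stretch was used for Col1a1, Col2a1, Col4a3, Col5a2, Col9a3, Col12a1, Col14a1, Col22a1 or Col26a1.

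All 6 basement membrane chains were tested and all 6 fell, with a median log2 fold change of -0.63 (corrected -0.42). The 6 genes encode the chains of 3 known type IV trimers: the common one of Col4a1 and Col4a2, that of Col4a3, Col4a4 and Col4a5 known from the mature kidney glomerulus, and that of Col4a5 and Col4a6. Col4a1 measured 2935, 2819, 2622 and 2711 CPM in WT libraries 1 to 4 and 2297, 1386 and 1824 CPM in KO libraries 1 to 3. Col4a2 measured 1839.6, 1756, 1557 and 1622 CPM in WT libraries 1 to 4 and 1394, 844 and 1244 CPM in KO libraries 1 to 3. KO library 1 was nearest to WT for both genes and KO library 2 farthest, and the groups did not overlap. Col4a1 fell with a log2 fold change of -0.59 (SE 0.133, corrected -0.42, edgeR adjusted p = 0.00582). Col4a2 fell with a log2 fold change of -0.55 (SE 0.140, corrected -0.37, edgeR adjusted p = 0.0124). Col4a5 measured 352, 318, 361 and 355 CPM in WT libraries 1 to 4 and 282, 163 and 209.5 CPM in KO libraries 1 to 3. Col4a6 measured 275, 258, 251 and 251 CPM in WT libraries 1 to 4 and 238, 134 and 179 CPM in KO libraries 1 to 3. The KO libraries stood in the same order as for Col4a1. Col4a5 fell with a log2 fold change of -0.67 (SE 0.145, corrected -0.43, edgeR adjusted p = 0.00588) and Col4a6 fell with a log2 fold change of -0.49 (SE 0.150, corrected -0.29, edgeR adjusted p = 0.0280). Col4a3 measured 29.0, 26.7, 30.8 and 26.8 CPM in WT libraries 1 to 4 and 19.3, 7.22 and 14.3 CPM in KO libraries 1 to 3. Col4a4 measured 79.0, 73.4, 67.8 and 67.1 CPM in WT libraries 1 to 4 and 46.7, 27.2 and 43.3 CPM in KO libraries 1 to 3. For these chains the KO values again ran from library 1 down to library 2, and Col4a4 fell with a log2 fold change of -0.88 (SE 0.155, corrected -0.51, edgeR adjusted p = 0.00214). Col4a3 fell with a log2 fold change of -1.06 (SE 0.300, corrected -0.75, edgeR adjusted p = 0.0382).

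The basement membrane calls differed in how far they depended on single libraries. Col4a4 was called in all 19 alternatives and Col4a1 in 18 of them. Without KO library 3, 2 of the 6 chains passed, Col4a1 and Col4a4, with the other adjusted p-values at 0.0505 (Col4a2), 0.110 (Col4a3), 0.0502 (Col4a5) and 0.125 (Col4a6) in edgeR and log2 fold changes of -0.60, -1.10, -0.64 and -0.48. Col4a3 was also lost without any one of the WT libraries (edgeR adjusted p of 0.0653 to 0.0772), and Col4a6 without any one WT library or without KO library 2 (0.0503 to 0.0602). With KO library 1 alone against WT, Col4a1 was at -0.27 (edgeR adjusted p = 0.0815), Col4a2 at -0.28 (0.0984), Col4a5 at -0.30 (0.0614) and Col4a6 at -0.12 (0.496), while Col4a3 and Col4a4 passed.

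The type IV genes are arranged in pairs that are transcribed away from each other. Col4a1 (chr8:11198423-11312826) and Col4a2 (chr8:11312805-11449287) overlap by 22 bases at their starts, Col4a4 (chr1:82448423-82586849) and Col4a3 (chr1:82586921-82722059) are separated by 71 bases, and Col4a6 and Col4a5 on the X chromosome by 1308 bases (mm10, GENCODE M21). The shared start sequences are shown because the members of each pair fell together (GRCm38.p6, plus strand, chr8:11312805-11312826 and chr1:82586850-82586920), with the GC box in capitals.
Col4a1 and Col4a2 overlap: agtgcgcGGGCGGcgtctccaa
Col4a4 to Col4a3 gap: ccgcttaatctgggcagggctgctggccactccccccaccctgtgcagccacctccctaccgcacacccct
The overlap held 1 GC box, and the gap held none of the 3 motifs. The overlap lies past the starts of both genes, so its GC box is in neither count of the bases before a start. The strand setting of the read counting is not given in the sources used here, so reads in the overlap, 0.333% of the Col4a1 exons, cannot be assigned to a gene with certainty.

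FACIT chains bind to the surface of fibrils. Of the 9 chains with a row, 7 were tested; 3 fell, 0 rose and 4 did not pass, with a median log2 fold change of -0.41 (corrected -0.29). Col12a1, a fibril-associated chain of tendon and other dense tissue, measured 152, 146, 152 and 141 CPM in WT libraries 1 to 4 and 73.5, 34.2 and 52.5 CPM in KO libraries 1 to 3. KO library 2 was the lowest, and even the highest KO library was below the lowest WT library by a wide margin. Col12a1, the longest of the tested transcripts of the family at 12.15 kb, fell with a log2 fold change of -1.47 (SE 0.228, corrected -1.04, edgeR adjusted p = 0.00377). Col16a1 measured 54.8, 49.4, 46.6 and 44.7 CPM in WT libraries 1 to 4 and 42.0, 28.4 and 39.9 CPM in KO libraries 1 to 3. Col9a2, a type IX chain, measured 9.89, 8.09, 9.71 and 10.2 CPM in WT libraries 1 to 4 and 7.09, 6.97 and 7.27 CPM in KO libraries 1 to 3. For both, the highest KO value was just below the lowest WT value. Col16a1 fell with a log2 fold change of -0.41 (SE 0.124, corrected -0.29, edgeR adjusted p = 0.0211) and Col9a2 fell with a log2 fold change of -0.41 (SE 0.127, corrected -0.49, edgeR adjusted p = 0.0226). Col9a2 was the only gene among the 23 whose change was larger after the correction.

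The smaller FACIT changes depended on single libraries. Col16a1 was not called without WT library 1 (edgeR adjusted p = 0.0731), KO library 2 (0.114) or KO library 3 (0.0541). Col9a2 was not called without WT library 1 (edgeR adjusted p = 0.0714), 3 (0.0546) or 4 (0.0761) or without KO library 2 (0.0616) or 3 (0.0707), so that the FACIT count was 1 of 7, Col12a1, without WT library 1, KO library 2 or KO library 3. Col14a1, Col20a1, Col22a1 and Col9a3 had means below 1 CPM and did not pass. In Col9a3, 7.68% of the exon bases are shared with Tcfl5 on the other strand, the largest overlap among these genes.

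Type VI collagen forms beaded filaments near cell surfaces, and its classical trimer holds the products of Col6a1, Col6a2 and Col6a3. Of the 6 microfibrillar chains tested, 4 fell, 0 rose and 2 did not pass, with a median log2 fold change of -0.81 (corrected -0.54). Col6a1 measured 90.2, 92.9, 74.8 and 80.2 CPM in WT libraries 1 to 4 and 69.4, 49.7 and 70.2 CPM in KO libraries 1 to 3. Col6a2 measured 12.8, 11.6, 12.3 and 11.9 CPM in WT libraries 1 to 4 and 9.59, 7.44 and 8.43 CPM in KO libraries 1 to 3. Col6a3 measured 9.58, 13.4, 10.8 and 10.1 CPM in WT libraries 1 to 4 and 6.17, 2.77 and 4.50 CPM in KO libraries 1 to 3. Col6a3 differed most between the groups, and in Col6a1 the highest KO library was just below the lowest WT library. Col6a1 fell with a log2 fold change of -0.42 (SE 0.120, corrected -0.40, edgeR adjusted p = 0.0163), a call lost without WT library 1 (-0.38, 0.0510) or KO library 2 (-0.27, 0.0817). Col6a2 fell with a log2 fold change of -0.52 (SE 0.122, corrected -0.35, edgeR adjusted p = 0.00588). Col6a3 fell with a log2 fold change of -1.30 (SE 0.223, corrected -0.98, edgeR adjusted p = 0.00182).

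Col6a4, Col6a5 and Col6a6 lie in a row on chromosome 9 and encode chains that can stand in for that of Col6a3. Col6a4 measured 78.4, 78.3, 71.3 and 72.7 CPM in WT libraries 1 to 4 and 46.6, 34.7 and 46.8 CPM in KO libraries 1 to 3. It fell with a log2 fold change of -0.82 (SE 0.108, corrected -0.57, edgeR adjusted p = 7.73e-05). Col6a6 measured 4.75, 3.96, 5.13 and 5.36 CPM in WT libraries 1 to 4 and 4.59, 1.68 and 2.02 CPM in KO libraries 1 to 3. KO library 1 lay within the WT range, and Col6a6 did not pass (log2 fold change -0.81, SE 0.294, edgeR adjusted p = 0.0588), but it passed without KO library 1 (-1.35, 4.26e-05), with DESeq2 (-0.80, 0.0119) and with voom quality weights (-1.19, 5.40e-04). Col6a5 averaged 0.992 ± 0.374 CPM over the 4 WT libraries and 0.491 ± 0.441 CPM over the 3 KO libraries (SD) and did not pass (log2 fold change -1.03, edgeR adjusted p = 0.147); without KO library 1 it did (-2.02, 0.00392).

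Outside these classes, the chains of hexagonal networks and the multiplexins fell. Col8a1, a chain of the sheet under endothelial cells of the cornea, and Col10a1, known from hypertrophic cartilage, encode short network-forming chains. Col8a1 measured 377, 349, 442 and 386 CPM in WT libraries 1 to 4 and 214, 227 and 226 CPM in KO libraries 1 to 3. Col10a1 measured 35.6, 33.2, 42.1 and 36.5 CPM in WT libraries 1 to 4 and 17.2, 13.3 and 13.9 CPM in KO libraries 1 to 3. For Col8a1 all 3 KO libraries were nearly equal, so that KO library 1 was as low as the others, and neither gene's groups overlapped. Col8a1 fell with a log2 fold change of -0.81 (SE 0.0949, corrected -0.58, edgeR adjusted p = 2.40e-05). Col10a1 fell with a log2 fold change of -1.32 (SE 0.117, corrected -1.31, edgeR adjusted p = 9.58e-07), one of the changes least altered by the correction. At 3.13 kb it is among the shorter transcripts of the family. The 250 bases before its start are shown because it and Col3a1 were the lower genes with a TATA box in these bases (RefSeq, GRCm38.p6, plus strand, chr10:34389731-34389980), with the motif in capitals.
Col10a1: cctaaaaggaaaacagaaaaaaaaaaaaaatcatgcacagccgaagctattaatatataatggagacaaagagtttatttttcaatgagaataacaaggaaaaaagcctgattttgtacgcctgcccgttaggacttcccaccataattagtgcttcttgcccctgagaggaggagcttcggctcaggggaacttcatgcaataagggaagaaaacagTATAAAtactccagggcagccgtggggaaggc

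Multiplexins are basement membrane proteoglycan collagens, and the end of the Col18a1 product is released as endostatin. Col15a1 measured 19.2, 18.7, 13.5 and 15.3 CPM in WT libraries 1 to 4 and 8.57, 4.60 and 6.39 CPM in KO libraries 1 to 3. It fell with a log2 fold change of -1.36 (SE 0.191, corrected -1.20, edgeR adjusted p = 4.28e-04). Col18a1 measured 2.71, 2.51, 2.42 and 1.95 CPM in WT libraries 1 to 4 and 2.09, 1.24 and 1.25 CPM in KO libraries 1 to 3. KO library 1 lay within the WT range. Col18a1 was just past the threshold (edgeR adjusted p = 0.0482, log2 fold change -0.66, SE 0.240), and the call was lost after the correction (-0.46, 0.146) and without any one WT library or KO library 2 or 3 (0.0514 to 0.194). The anchoring fibril chain Col7a1 (1.80 ± 0.136 CPM over the 4 WT libraries and 1.37 ± 0.305 CPM over the 3 KO libraries (SD)) and the transmembrane chain Col23a1 (1.09 ± 0.222 CPM over the 4 WT libraries and 0.909 ± 0.186 CPM over the 3 KO libraries (SD)) did not pass, with log2 fold changes of -0.40 (SE 0.241, edgeR adjusted p = 0.222) and -0.26 (SE 0.303, edgeR adjusted p = 0.565). The transmembrane chains Col17a1 and Col25a1 had means below 1 CPM and did not pass either.

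**Figure D3:**
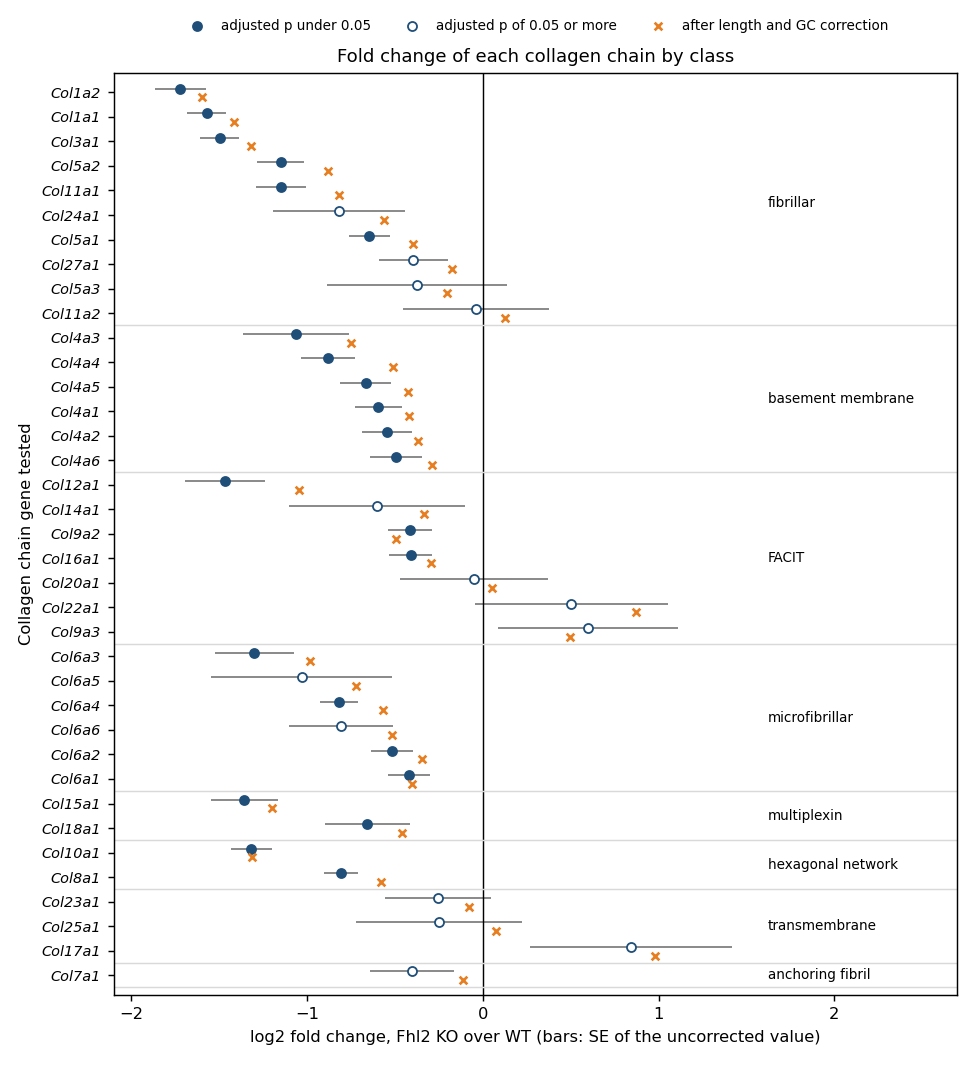
log2 fold change of each of the 37 tested collagen chain genes, KO over WT, by class, with bars for the SE; filled circles passed adjusted p 0.05 in edgeR, open circles did not, and orange crosses are the corrected values. Of the points, 34 are below 0, and the widest bars belong to genes with few reads.

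The calls fell on the collagen genes with more reads. Of all genes tested, whatever their level, 15.6% fell, and the share among those of at least 1 CPM was not counted. All 23 collagen genes that fell were among the 27 tested collagen genes with a mean of at least 1 CPM. The others of the 27 were Col6a6, Col7a1, Col23a1 and Col27a1. None of the 10 tested genes below 1 CPM passed; they had 4 to 55 counts per library, log2 fold changes of -1.03 to 0.84 and edgeR adjusted p-values of 0.109 to 0.956. The 3 tested genes with a positive log2 fold change, Col9a3, Col17a1 and Col22a1, were among these. Not tested were Col2a1, Col8a2, Col13a1, Col19a1, Col26a1 and Col28a1, with at most 18 counts in any library, and Col9a1, which had 0 counts in all 7 libraries. A count of 0 allows up to 0.0598 to 0.0775 CPM per library, taking 3 counts as the limit, and such limits cover counting error only.

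Collagen genes have long transcripts, and fold changes ran with length over all genes. Sorted into 10 bins by length, genes of the shortest bin had a median log2 fold change of 0.28 and those of the longest bin -0.37. The longest bin held 13 of the 37 tested collagen genes, and 45.8% of all its genes fell; the next bin, with a median of -0.23, held 17 of the 37, and 33.3% of all its genes fell. After the correction, 22 of the 37 fell and 0 rose, against 11.5% lower and 10.6% higher over all genes, and the median was -0.43 beside -0.00467 over all genes. All 22 were among the 23 called before, and the lost call was Col18a1. In size, 22 of the 23 changes were smaller after the correction, and 6 genes rather than 10 were called at least 2-fold lower. The share of all genes at least 2-fold lower was counted only before the correction (1.12%). The slopes on length did not overlap between the groups, so a length trend of the libraries and one of the genotype cannot be told apart.

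**Figure D4:**
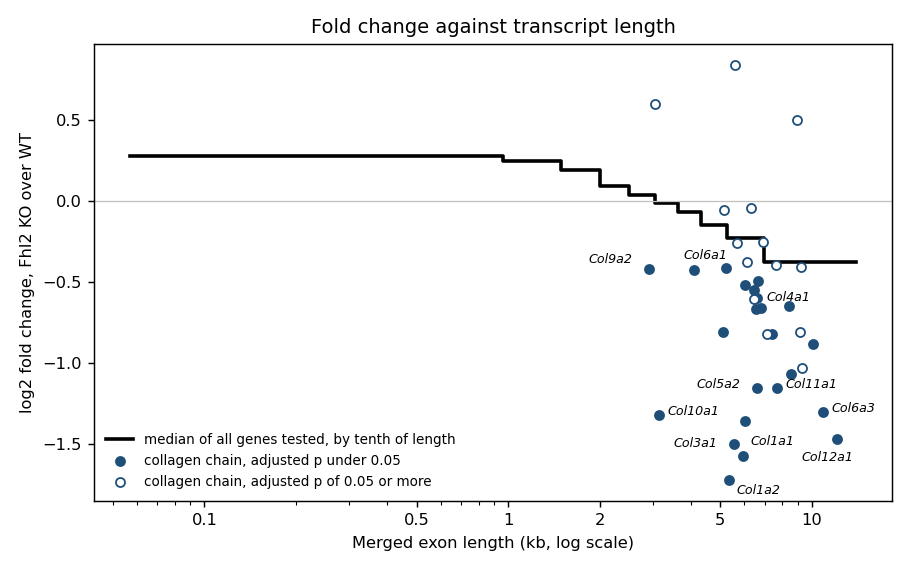
log2 fold change of each tested collagen chain gene, KO over WT, against the length of its merged exons in kb on a log scale, with the median of all genes tested in each of 10 bins of length as a black line. Most filled circles (adjusted p under 0.05) lie below the line, which itself falls from 0.28 to -0.37.

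Ratios of partner chains were compared within libraries, which removes the library total. Reads per kb of Col1a1 against those of Col1a2 had a ratio of 0.707, 0.700, 0.713 and 0.744 in the WT libraries and 0.699, 0.816 and 0.905 in the KO libraries. The groups overlapped. The ratio of Col4a1 to Col4a2 was 1.555, 1.565, 1.642 and 1.629 in the WT libraries and 1.606, 1.601 and 1.430 in the KO libraries, again with overlap, while both genes differed between the groups in level. For Col5a1 to Col5a2 it was 0.0361, 0.0370, 0.0296 and 0.0342 in the WT libraries and 0.0419, 0.0495 and 0.0560 in the KO libraries. Every KO library was above every WT library, as the Col5a2 level fell more than that of Col5a1. The ratio of Col6a1 to Col6a2 was 10.3, 11.8, 8.93 and 9.87 in the WT libraries and 10.6, 9.79 and 12.2 in the KO libraries and overlapped. That of Col6a1 to Col6a3 was 24.9, 18.4, 18.3 and 21.1 in the WT libraries and 29.8, 47.5 and 41.3 in the KO libraries, without overlap.

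With 4 against 3 libraries, a two-sided exact permutation test that doubles the smaller tail cannot go below p = 0.0571. In that form it could not pass for any of the 5 ratios, and other forms were not run. The ratios are a description. The mean log2 ratio was higher in KO by 0.52 for Col5a1 to Col5a2, by 0.92 for Col6a1 to Col6a3, by 0.16 for Col1a1 to Col1a2 and by 0.09 for Col6a1 to Col6a2. For Col4a1 to Col4a2 it differed by -0.05, and by 0.00553 without KO library 3. Ratios do not remove the trend with transcript length. The Col6a1 transcript has 4.10 kb and that of Col6a3 10.85 kb, and their log2 fold changes of -0.42 and -1.30 were -0.40 and -0.98 after the correction. The Col5a1 and Col5a2 transcripts have 8.41 and 6.62 kb, with -0.65 and -1.15 before and -0.40 and -0.88 after it.

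**Figure D5:**
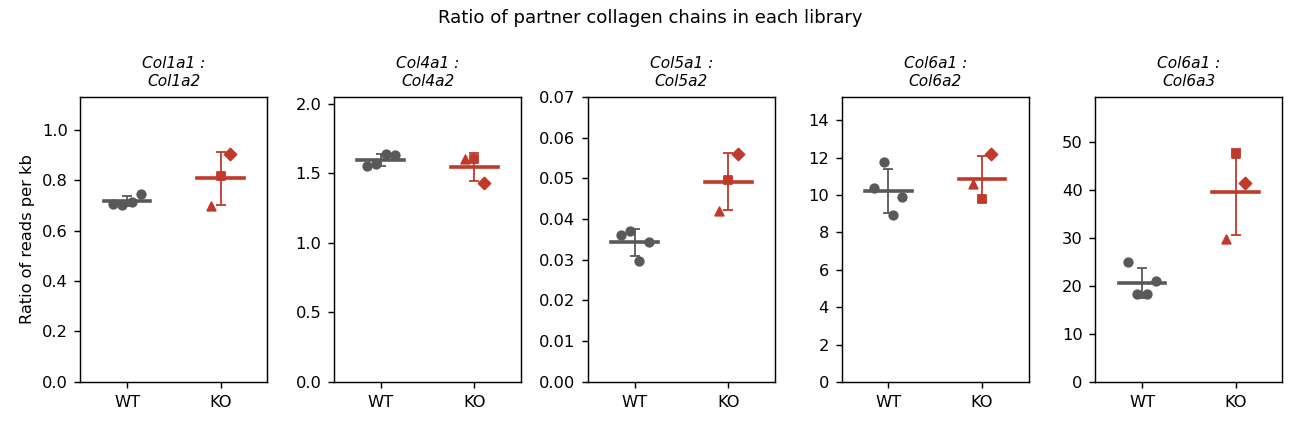
Ratio of reads per kb of partner chains in each library, with horizontal lines for the group mean and bars for the SD (n = 4 WT, n = 3 KO); KO libraries 1, 2 and 3 are a triangle, a square and a diamond. For Col5a1 to Col5a2 and Col6a1 to Col6a3 every KO library lies above every WT library, and in the other 3 panels the groups overlap.

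Genes that act with collagen were read from lists of the pathway, whose counts stand against 15.6% of all genes lower and 13.5% higher, or 11.5% and 10.6% after the correction. Of 17 tested genes of chain modification and folding, 4 fell, 0 rose and 13 did not pass, with a median log2 fold change of -0.01. After the correction 7 were lower (median -0.08), as Serpinh1, P3h3 and Crtap joined them. P4ha3, a prolyl hydroxylase subunit, went from 72.2 ± 3.28 to 51.3 ± 6.93 CPM (log2 fold change -0.49, corrected -0.63, edgeR adjusted p = 0.00240), and P4ha1, another such subunit, from 152 ± 5.37 to 119 ± 14.1 CPM (log2 fold change -0.35, corrected -0.22, edgeR adjusted p = 0.0116). The galactosyltransferase gene Colgalt2 went from 7.44 ± 0.554 to 5.10 ± 0.752 CPM (log2 fold change -0.55, corrected -0.43, edgeR adjusted p = 0.0104) and the prolyl 3-hydroxylase gene P3h2 from 62.1 ± 3.02 to 46.2 ± 12.5 CPM (log2 fold change -0.43, corrected -0.44, edgeR adjusted p = 0.0322). P4ha1 no longer passed without KO library 2 (0.0561 in edgeR) or 3 (0.0693), nor did Colgalt2 without KO library 3 (0.0683) or P3h2 when WT library 1, 3 or 4 or when KO library 2 or 3 was left out (0.0646 to 0.161; all adjusted p). Of 7 tested secretion genes, 2 fell and 1 rose (median -0.22). The collagen export receptor Mia3 went from 108 ± 13.4 to 76.2 ± 13.3 CPM (log2 fold change -0.51, corrected -0.49, edgeR adjusted p = 0.00701), and Creb3l1, a transcription factor of secretory load, from 92.2 ± 1.02 to 71.6 ± 4.71 CPM (log2 fold change -0.37, corrected -0.50, edgeR adjusted p = 0.00576). Sar1b, a GTPase of COPII vesicles, went from 43.8 ± 3.51 to 56.3 ± 6.22 CPM (log2 fold change 0.36, corrected 0.16, edgeR adjusted p = 0.0134), a rise, but lost its call after the correction and without KO library 2 (edgeR adjusted p = 0.0580) or 3 (0.0574). Mia2, a related export protein, did not pass (from 77.5 ± 9.57 to 64.4 ± 2.72 CPM, log2 fold change -0.27, corrected 0.06, edgeR adjusted p = 0.0551), and its sign turned after the correction; it passed without WT library 2 (edgeR adjusted p = 0.0391) or KO library 1 (0.0287).

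Other lists held genes that act on collagen outside the cell. Of 5 tested crosslinking oxidases, 2 fell and 0 rose (median -0.60): Lox went from 668 ± 49.0 to 329 ± 20.1 CPM (log2 fold change -1.02, corrected -0.83, edgeR adjusted p = 1.37e-06) and Loxl2 from 159 ± 6.03 to 92.2 ± 19.6 CPM (log2 fold change -0.79, corrected -0.61, edgeR adjusted p = 2.24e-04). Loxl4 and Loxl3 did not pass (edgeR adjusted p = 0.0768 and 0.360), and Loxl4 passed without KO library 3 (0.0340). Of 7 tested genes of propeptide processing, 3 fell and 0 rose (median -0.35). After the correction 3 were again lower (median -0.22), with Pcolce in place of Adamts2. The N-proteinase genes Adamts14 and Adamts2 went from 11.3 ± 1.29 to 6.47 ± 0.707 CPM (log2 fold change -0.80, corrected -0.68, edgeR adjusted p = 6.55e-04) and from 121 ± 6.64 to 94.9 ± 13.2 CPM (log2 fold change -0.35, corrected -0.11, edgeR adjusted p = 0.0150). Adamts2 lost its call after the correction and without KO library 2 (edgeR adjusted p = 0.0801) or 3 (0.0830). Tll1, a relative of the C-proteinase Bmp1, went from 0.761 ± 0.183 to 0.232 ± 0.160 CPM (log2 fold change -1.69, corrected -1.49, edgeR adjusted p = 0.0166) and lost its call without WT library 4 (edgeR adjusted p = 0.0506) or KO library 3 (0.0966). The enhancer Pcolce2, with at most 20 counts in a library, did not pass (log2 fold change 1.25, edgeR adjusted p = 0.118).

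Receptors for collagen included 5 of 9 tested genes that fell and 0 that rose (median -0.51), and 3 of 9 that were lower after the correction (median -0.20). The collagen-binding integrin subunit Itga1 went from 11.2 ± 0.828 to 4.61 ± 1.21 CPM (log2 fold change -1.29, corrected -0.87, edgeR adjusted p = 3.92e-05). Mrc2, which takes up collagen fragments, went from 10.2 ± 0.958 to 5.30 ± 1.11 CPM (log2 fold change -0.95, corrected -0.79, edgeR adjusted p = 4.78e-04), the receptor kinase Ddr2 from 37.5 ± 4.38 to 25.1 ± 2.00 CPM (log2 fold change -0.58, corrected -0.20, edgeR adjusted p = 0.00139), and Adgrg1, known as a receptor for type III collagen, from 123 ± 10.2 to 80.6 ± 14.9 CPM (log2 fold change -0.62, corrected -0.61, edgeR adjusted p = 0.00158). The calls lost after the correction were Ddr2 and the integrin subunit Itga2 (log2 fold change -0.34, corrected -0.03). Of 12 tested fibril-binding proteoglycans and glycoproteins, 3 fell and 0 rose (median -0.38), and 5 were lower after the correction (median -0.34), when Fmod and Sparc were added. Biglycan (Bgn) went from 306 ± 20.9 to 221 ± 0.958 CPM (log2 fold change -0.47, corrected -0.54, edgeR adjusted p = 0.00146) and fibronectin (Fn1) from 297 ± 13.2 to 143 ± 49.5 CPM (log2 fold change -1.05, corrected -0.78, edgeR adjusted p = 0.00762), a call lost without KO library 3 (-1.03, edgeR adjusted p = 0.0504). Osteoglycin (Ogn) went from 68.1 ± 11.2 to 53.9 ± 3.06 CPM (log2 fold change -0.34, corrected -0.45, edgeR adjusted p = 0.0318) and lost its call when WT library 3, WT library 4, KO library 1 or KO library 3 was left out (0.0639 to 0.125, adjusted p in edgeR). Fibromodulin (Fmod) did not pass (log2 fold change -0.42, edgeR adjusted p = 0.0572), but did without KO library 1 (0.0155) and after the correction (0.0368).

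Among 8 tested regulators of collagen genes, 2 fell and 2 rose (median -0.01), with 1 lower and 1 higher after the correction. Runx2, a factor that acts on bone and cartilage collagen genes, went from 41.4 ± 0.905 to 25.3 ± 4.17 CPM (log2 fold change -0.71, corrected -0.41, edgeR adjusted p = 2.79e-04), and Sp1, a factor that binds GC boxes, from 70.3 ± 2.40 to 54.1 ± 7.13 CPM (log2 fold change -0.38, corrected -0.04, edgeR adjusted p = 0.00995), but the Sp1 call was lost after the correction and without KO library 2 (edgeR adjusted p = 0.0577). Cebpb went from 42.3 ± 3.22 to 64.8 ± 11.2 CPM (log2 fold change 0.62, corrected 0.45, edgeR adjusted p = 0.00118). Ccn2, connective tissue growth factor, went from 633 ± 105 to 825 ± 148 CPM (log2 fold change 0.38, corrected 0.37, edgeR adjusted p = 0.0495) and lost its call after the correction and when any of WT libraries 1 to 3 or KO libraries 2 and 3 was left out (0.0830 to 0.160, adjusted p in edgeR). Of 3 tested proteases that degrade collagen, 2 fell and 1 rose: Mmp2 went from 47.7 ± 2.83 to 32.8 ± 4.19 CPM (log2 fold change -0.54, corrected -0.61, edgeR adjusted p = 0.00160), Mmp14 from 211 ± 12.3 to 151 ± 26.2 CPM (log2 fold change -0.48, corrected -0.44, edgeR adjusted p = 0.00401) and the lysosomal protease Ctsk from 5.02 ± 1.33 to 7.58 ± 0.369 CPM (log2 fold change 0.59, corrected 0.44, edgeR adjusted p = 0.0203). The Ctsk call was lost after the correction and without WT library 4 (edgeR adjusted p = 0.0515) or KO library 3 (0.0750). The interstitial collagenases Mmp1a, Mmp8 and Mmp13 had at most 2 counts in any library.

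Markers of other cells were read beside the collagen values. Their counts, like those of the granulosa markers below, stand against 15.6% of all genes lower and 13.5% higher. After the correction these shares were 11.5% and 10.6%. Of 9 tested smooth muscle and pericyte markers, 5 fell and 0 rose, and the summed level of the list ran from 1031 to 1145 CPM in WT and 580.0 to 675 CPM in KO; Acta2 was 882 ± 38.1 CPM over the 4 WT libraries and 491 ± 40.4 CPM over the 3 KO libraries (SD), Myh11 was 24.8 ± 1.54 CPM over the 4 WT libraries and 5.78 ± 1.93 CPM over the 3 KO libraries (SD), and Rgs5 was at 0 in all libraries. Of 9 tested fibroblast and stroma markers other than collagens, 4 fell and 0 rose, with a summed level of 227 to 245 CPM in WT and 208 to 219 CPM in KO. The 4 that fell were Pdgfra (log2 fold change -0.78), Tcf21 (-1.12), Fbln1 (-0.27) and Ogn (-0.34). Fbln1 lost its call in 15 of 19 alternatives and Tcf21 in 9 of 18. After the correction 4 were again lower, with Mgp in place of Pdgfra. Decorin (Dcn) and lumican (Lum), abundant in fibroblasts, were at 0.517 ± 0.0678 CPM over the 4 WT libraries and 0.690 ± 0.163 CPM over the 3 KO libraries (SD) for Dcn and at most 26 counts in any library for Lum. Neither was called, with log2 fold changes of 0.42 for Dcn and -2.34 for Lum. Endothelial markers summed to 5.03 to 6.02 CPM in WT and 4.24 to 4.95 CPM in KO with 1 of 6 lower, and of 2 tested theca markers 1 fell (0 after the correction), Cyp17a1 having at most 3 counts and Insl3 at most 2. Macrophage and leukocyte markers summed to 22.5 to 24.0 CPM in WT and 22.1 to 26.0 CPM in KO with 0 of 5 called, and oocyte markers to 2.19 to 7.33 CPM in WT and 3.28 to 8.46 CPM in KO with 1 of 4 lower. Of 8 surface epithelium markers, 5 rose (summed 110.0 to 127 CPM in WT and 140.0 to 183 CPM in KO), and 2 of 3 tested lung genes rose (summed 0.128 to 0.418 CPM in WT and 1.16 to 25.3 CPM in KO). After the correction 6 of the smooth muscle and pericyte markers were lower, and 4 of the surface epithelium markers were higher. The part of these cells in the collagen differences was not tested.

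Granulosa markers themselves were present: Inha was 1042 ± 53.5 CPM over the 4 WT libraries and 1699 ± 121 CPM over the 3 KO libraries (SD), Inhba was 3096 ± 335 CPM over the 4 WT libraries and 2027 ± 588 CPM over the 3 KO libraries (SD) and Foxl2 was 70.1 ± 6.61 CPM over the 4 WT libraries and 52.5 ± 6.45 CPM over the 3 KO libraries (SD). Of 9 tested, 5 fell and 2 rose, and after the correction 5 were lower and 1 higher. Markers with few reads included Fshr and Amh. Fshr was 5.40 ± 0.439 CPM in WT and 7.52 ± 2.23 CPM in KO (log2 fold change 0.47, edgeR adjusted p = 0.0477). The groups overlapped, and the call was lost after the correction. Amh was 1.87 ± 0.404 CPM in WT and 0.899 ± 0.232 CPM in KO (log2 fold change -1.06, edgeR adjusted p = 0.0104), a call lost without KO library 3. Cyp19a1, the aromatase of estrogen-producing granulosa cells, had 0 counts in the 4 WT libraries and 8, 17 and 6 counts in KO libraries 1 to 3.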

How the data were processed

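The deposited values were counts, whole-number reads per gene symbol that the authors had not normalized, in 1 column per library. The submitters' processing notes name HISAT2 2.2.1 and featureCounts 1.6.4 beside fastp, SAMtools, DESeq2 1.28.1 and Cufflinks 2.2.1, and the build mm10, with no order. How strand and reads shared by near-identical genes were treated, and the annotation release, are not stated in those sources. Per the labels' protocols, a stranded mRNA kit was used on RNA from TRIzol.

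The test was edgeR 4.0.16 in R 4.3.3 (filterByExpr with a minimum count of 10, TMM, robust glmQLFit, glmQLFTest) with genotype as the only term, over all 15798 genes tested. Levels are mean ± SD over the 4 WT and the 3 KO libraries, and SEs are on the log2 scale. For chain ratios the two-sided exact permutation test over libraries, with the smaller tail doubled, cannot pass the threshold, so they are given as values. Classes, pathway lists and markers were described by counts and medians, with no list test. The correction took from each library a spline fit of log2 CPM on transcript length and GC (4 degrees of freedom, genes above 1 CPM; GENCODE M21, with a length for 98.6% of the genes tested) and entered it as an edgeR offset. Of the rows, 26 had a name turned into a date, and none was a collagen gene. The edgeR test without the correction was tried on simulated counts with known changes. The correction was not tried in this way. Alternatives included DESeq2 1.42.0 and voom in limma 3.58.1.

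The named genes were every tested collagen gene with a mean of at least 1 CPM and up to 4 genes with the smallest p from each pathway list; other collagen genes are given by counts and range, and the few named among them were chosen after their values were seen. The members and lists were chosen with earlier results of these data known. No libraries of a group were duplicates, with a chi-square per degree of freedom of at least 9.72 between them.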

Additional observations from a re-analysis of the deposited data

How the results depend on the processing

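Of the 23 collagen genes that fell, 13 kept the call in every one of the 19 alternatives that gave them a value, 10 lost it in some, and 0 changed sign. With the lone KO library 1 against WT, assumed to vary like the WT libraries, 14 collagen genes fell, with 2 basement membrane, 1 FACIT and 2 microfibrillar chains, on a background of 504 lower and 277 higher genes. Leaving out each library gave 16 to 26 lower collagen genes, 2 to 6 basement membrane chains and 1 to 3 FACIT chains, while fibrillar chains ran from 6 to 7. Without KO library 1 the background was 3409 lower and 3331 higher, without KO library 3 it was 995 and 662, without WT library 3 it was 1631 and 1363, and without WT library 4, 1689 and 1271. The difference in the log2 ratio of Col4a1 to Col4a2 ran from -0.078 to 0.00553 when each library was left out. DESeq2 gave 24 lower collagen genes, where 2646 of all genes fell and 2358 rose, and voom quality weights 26 (3404 and 3123). Library totals alone gave 22 (2129 and 2630), and no low-count filter 25, of 43 tested (2656 and 2061).

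Same-numbered libraries did not deviate together (correlations of 0.0326, -0.0013 and -0.0324), and not every library correlated best with its own number. With the replicate number as a block on 6 libraries, 24 collagen genes fell and 0 rose, against 19 for the same 6 libraries without it; over all genes the block gave 2073 lower and 1228 higher. The fit of these 6 libraries without the block is the same as that without WT library 4. Every tally of alternatives counts it under both names. The block gave 0.00889 for Col11a2 and 0.12 for Col25a1, and the same 6 libraries without it 0.10 and 0.10, where the reported values were negative.

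All other changes of sign were among genes that had not passed, and the cause was not tested. After the length and GC correction they were Col11a2 (0.12), Col20a1 (0.052), Col25a1 (0.074) and Mia2 (0.064). For KO library 1 alone they were Col6a5 (0.012), Col9a3 (-0.29), Col11a2 (0.68), Col14a1 (0.040), Col20a1 (0.36) and Col22a1 (-0.68). Leaving out each library gave ranges of -0.55 to 0.32 for Col11a2, -0.28 to 0.17 for Col20a1, -0.11 to 0.86 for Col22a1 and -0.42 to 0.10 for Col25a1. Low counts limit the precision for genes below 1 CPM.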
